A study of Mus musculus with 14 samples.

Results

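The genes described here are 154 long intergenic noncoding RNAs (lincRNAs) of MC3T3-E1 cells, a mouse line derived from calvaria that is used as a model of osteoblasts, the cells that lay down bone matrix. They are the rows of the deposited count table with the biotype lincRNA and at least 20 read counts in at least 4 of the 14 libraries, leaving out H19 and Meg3 by name. The table held 24346 genes, of which 1523 had that biotype. Of these, 1368 did not reach the threshold, H19 reached it and was left out, and Meg3 did not reach it. The members were thus selected on their counts, and their presence is not a finding. Just inside the threshold were Gm26910, with a fourth-highest count of 20, and 8430423G03Rik, with 21. Just outside were RP24-80F7.5 and Gm15853, each with a fourth-highest count of 19.

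The study compared control cells with cells labelled as carrying a knockdown of MACF1, a large protein that links microtubules to actin, over a course of days. Each condition had 2 libraries at day 0, 2 at day 3, 2 at day 5 and 1 at day 10. The series describes the 2 libraries of a group as biological replicates, and all came from the same line. The labels give no vector, no hairpin sequence, no culture medium and no definition of day 0, so it is not said here what started the course.

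LincRNAs are transcribed by RNA polymerase II, mostly spliced and often polyadenylated, like messenger RNAs, but they do not encode a known protein. Some act in the nucleus as scaffolds, some are mainly carriers of small RNAs that are cut out of their introns or exons, and for many no function is known. As a class they are usually present at lower levels than messenger RNAs, and their expression is often restricted to few cell types. In bone-forming cells they have been studied among other things as hosts of miRNAs.

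The libraries held 8044687 to 23301514 counts, and the smallest was control day 3 replicate 2. That library stood apart from its replicate: their log2 CPM (counts scaled to library size) correlated at 0.928 over all genes tested, against 0.991 to 0.993 in the other 5 replicate pairs. Ribosomal protein genes took 19.28% of its counts, against 5.503% to 10.99% in the others. The share was 7.962% to 10.99% in the other control libraries and 5.503% to 7.678% in the libraries labelled knockdown. Macf1, the targeted gene, did not pass as lower in the libraries labelled knockdown: the log2 fold change averaged over days 0, 3 and 5 was 0.13 (standard error 0.24, adjusted p = 0.724), and −0.08 (adjusted p = 0.274) without control day 3 replicate 2, with edgeR's quasi-likelihood test and Benjamini-Hochberg adjustment. The groups are therefore called by their labels throughout, as control and knockdown-labelled libraries. All 10 osteoblast markers looked for were measured, with a summed level of 12430 to 27250 CPM in control and 12023 to 21094 CPM in the knockdown-labelled libraries. The sum hides large opposite changes. By averaged log2 fold change 4 were higher there (Phex 3.59, Bglap 2.39, Dmp1 1.38 and Spp1 0.60). The 3 that were lower were Ibsp (−3.57), Alpl (−2.66) and Runx2 (−0.61). Of all genes tested, 15% were higher and 11.9% lower. No adipocyte marker passed the filter on low counts. Of 5 leukocyte markers Lyz2 passed, at 1.558 to 4.261 CPM in control and 3.269 to 9.602 CPM in the others, while Ptprc, Cd68, Adgre1 and Csf1r reached at most 10 counts. Of 5 endothelial markers Pecam1 passed, at up to 2.266 CPM. Of 5 muscle markers Des and Acta1 passed, with a summed level of 1.029 to 4.702 CPM in control and 6.191 to 13.01 CPM in the others, and Ckm and Myog reached at most 5 counts. Of 5 chondrocyte markers 4 passed, with a summed level of 149.4 to 371.4 CPM in control and 211.8 to 343.6 CPM in the others. By averaged log2 fold change Col2a1 was higher there (0.78, adjusted p = 0.000276). None of the 4 was called lower, with Sox9 at −0.53 (adjusted p = 0.132). The part of these differences in the lincRNA results was not tested, and in bulk RNA fewer cells of a type and less RNA per cell cannot be told apart.

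Most of the lincRNAs were higher in control day 3 replicate 2 than in its replicate. The median over the 154 lincRNAs of replicate 2 minus replicate 1 was 0.53 on the log2(CPM + 0.5) scale in control on day 3, whereas the median over all genes tested was −0.00. In that pair 43 lincRNAs were over 2-fold higher in replicate 2 and 6 over 2-fold lower, beside 15% and 16.2% of all genes tested. In each of the other 5 pairs, 1 to 4 lincRNAs were over 2-fold higher and 2 to 4 over 2-fold lower. Many results that rest on day 3 are therefore given with and without this library. For those given once, its part is not shown in the text.

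**Figure D1:**
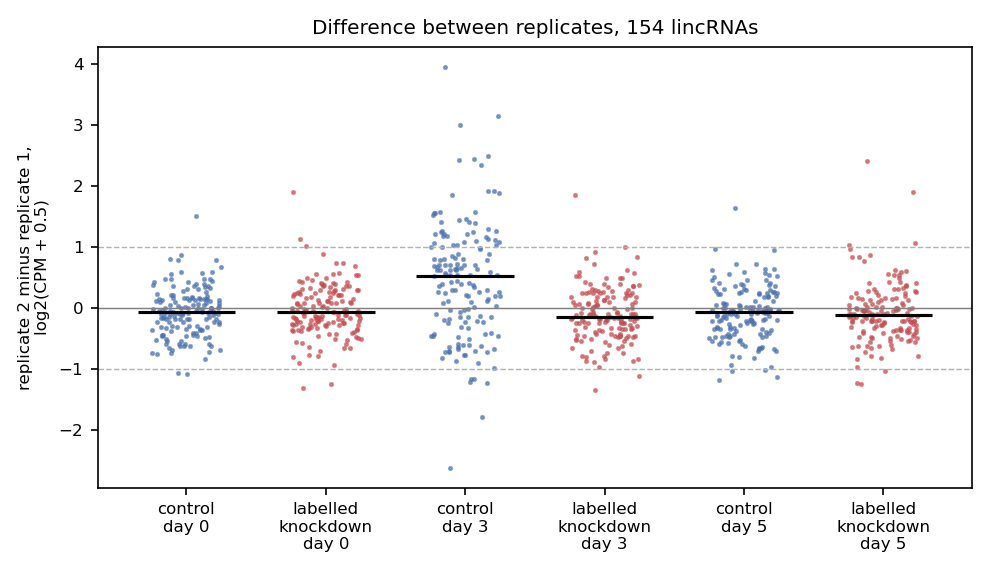
Replicate 2 minus replicate 1 for each of the 154 lincRNAs (points) on the log2(CPM + 0.5) scale, by condition and day; bars are medians, dashed lines mark a 2-fold difference, and sideways scatter carries no meaning. The control pair of day 3 has a median of 0.53, and the medians of the other pairs lie between −0.14 and −0.07.

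Most of the 154 lay close to a protein-coding gene. In the GENCODE M21 annotation (GRCm38), 150 could be placed by their identifier. That release keeps 113 of them as lincRNA and lists 14 as bidirectional promoter transcripts, 12 as antisense, 8 as processed transcripts, 2 (Gm2115 and Gm8773) as protein-coding and 1 as a transcribed pseudogene. The nearest protein-coding gene was divergent for 55, on the same strand for 45, overlapping on the opposite strand for 33, convergent for 15 and overlapping on the same strand for 2. For 49 members a protein-coding gene started within 1000 bp on the opposite strand, and 19 members were over 50 kb from any protein-coding gene. Their union of exons was shorter than that of all genes tested, with a median of 2298 bp against 4288 bp. They had fewer exons (a median of 3 against 9 in the transcript with the most exons) and a GC content of 47.26% against 49.48%. Single-exon genes made up 18 of the 150. The strand setting of the counting is not given in the sources used here, so reads of the 35 members that overlap a protein-coding gene cannot be told with certainty from reads of that gene.

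The members differed widely in level. On the deposited RPKM scale (reads scaled by transcript length and library size), which allows genes to be compared per length, the median member had a median level of 1.245 RPKM over the 14 libraries. The same figure was 6.48 RPKM for all 13130 genes tested and 7.553 RPKM for the 11948 protein-coding genes among them. Only 12 members reached 10 RPKM, 85 were between 1 and 10, and 57 were under 1 RPKM. Yam1 had the highest median level (3012 RPKM, range 2183 to 11674), followed by Malat1 (645.6 RPKM, 299.1 to 1265), RP24-567O8.4 (73.59 RPKM, 43.88 to 99.88), Epb4.1l4aos (43.22 RPKM, 26.43 to 133.1) and RP24-230J14.4 (42.2 RPKM, 28.78 to 59.25). Yam1 and Malat1 together held 89.8% of all counts on the 154 genes, and the 10 highest members held 95.19%. The lincRNAs took 1.036% to 3.318% of a library's counts, but 0.1184% to 0.1981% once Yam1 and Malat1 were set aside. The highest of these latter shares was that of control day 3 replicate 2. In that library, the smallest, Gm26917 held 3927 counts, against 896 to 2451 in the others. Only 58 members reached 20 counts in all 14 libraries.

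**Figure D2:**
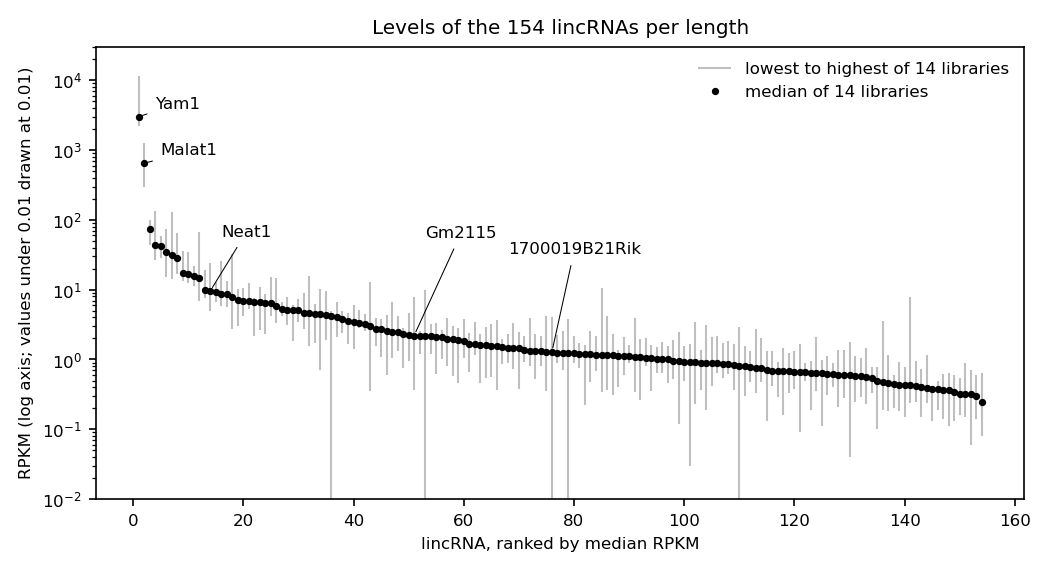
Median RPKM over the 14 libraries (points, log axis) of each of the 154 lincRNAs in rank order, with the lowest to highest library as a grey line. Yam1 and Malat1 stand above the rest at 3012 and 645.6 RPKM, and 57 members lie under 1 RPKM.

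Yam1 (chr17:39846958-39848788, GRCm38, Gm42418 in M21) needs a caution, since RefSeq places a pseudogene of 18S ribosomal RNA, Rn18s-rs5, over the same stretch and lists Gm42418 among its synonyms. Its CPM in control was 14419 and 6836 on day 0, 5494 and 10189 on day 3, 5702 and 8584 on day 5 and 4552 on day 10. In the knockdown-labelled libraries it was 4378 and 9588 on day 0, 4397 and 5796 on day 3, 4268 and 22779 on day 5 and 4871 on day 10. Replicates of a group differed as widely as the conditions, and no comparison passed the test (averaged log2 fold change −0.10, standard error 0.40, adjusted p = 0.875). RP24-567O8.4 (log2 fold change −0.15, standard error 0.20) and RP24-230J14.4 (−0.14, standard error 0.15), whose functions are not known, also missed the threshold, with adjusted p of 0.625 and 0.512.

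Averaged over the replicated days, 24 of the 154 lincRNAs were higher and 16 lower in the knockdown-labelled libraries (edgeR's quasi-likelihood test, Benjamini-Hochberg adjusted p under 0.05 over all 13130 genes tested). The same test called 15% of all genes higher and 11.9% lower, so the members' shares, 15.6% and 10.4%, were near the background. The median log2 fold change was 0.05 over the members and −0.00 over all genes tested. All 154 members passed the filter on low counts, but 25 of them reached 20 counts in 4 libraries only through the knockdown-labelled libraries and 3 only through control. Of the 24 that rose, 9 were among the former: those were chosen through the condition in which they are high, and their direction is no evidence of its own. They are 1700019B21Rik, Gm26722, A330074K22Rik, A830019P07Rik, 4930509E16Rik, Gm15398, 3300005D01Rik, RP23-112A11.1 and Gm12056. Leaving out control day 3 replicate 2 gave counts of 33 and 16, beside 24.9% and 22.2% of all genes, and 23 of the 24 rises and 15 of the 16 falls were kept. Gm12056 and RP24-487F9.4 lost their call. An average over days 0 and 5 alone gave 13 rises and 3 falls, beside 9.25% and 5.69% of all genes. All 14 libraries stayed in that fit, so the spread of day 3 still entered it. Of those calls, 11 and 3 were among the ones named by all days. In 17 members (11%) both knockdown-labelled libraries were above both control libraries at each of the 3 replicated days, and in 11 (7.14%) below, beside 13.7% and 9.55% of all genes.

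**Figure D3:**
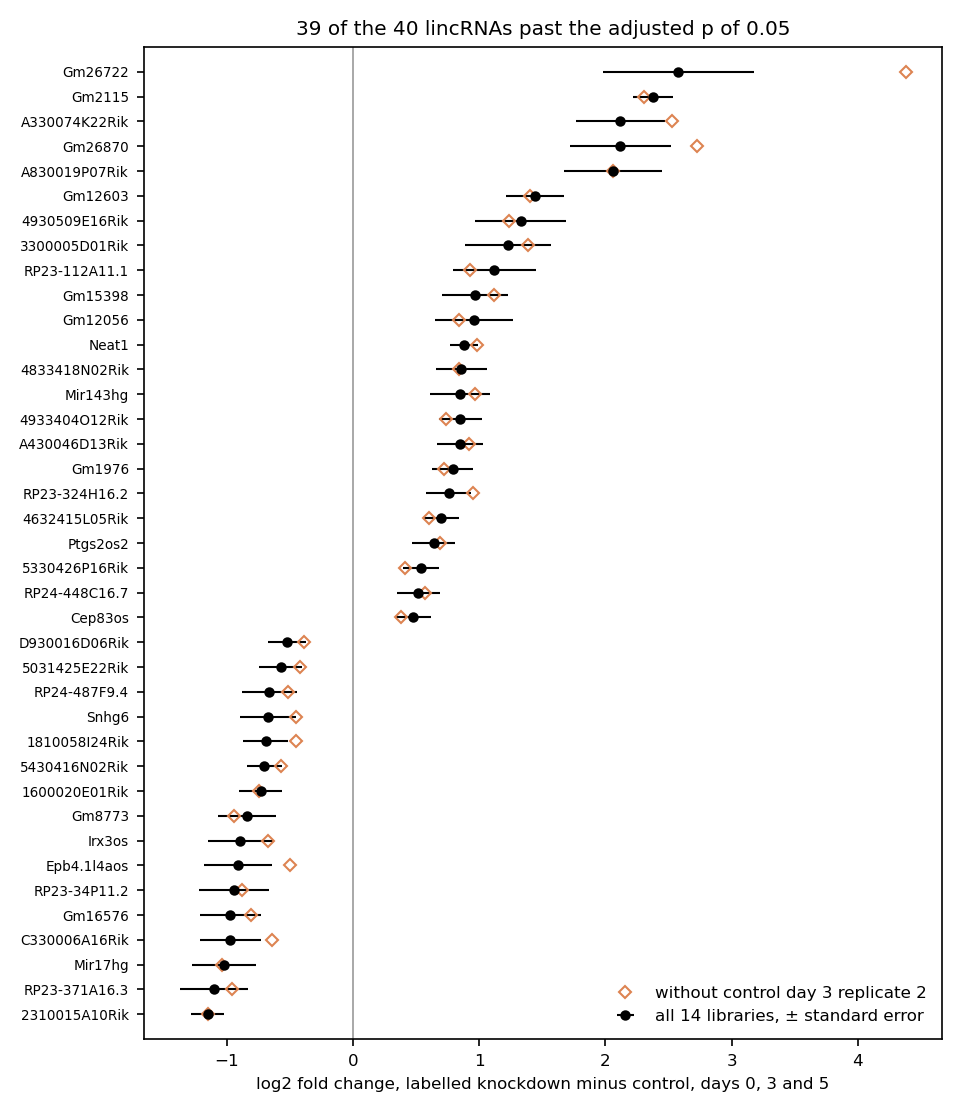
Log2 fold change, knockdown-labelled libraries minus control averaged over days 0, 3 and 5, of 39 of the 40 lincRNAs past the threshold: black points with the standard error from all 14 libraries, open diamonds without control day 3 replicate 2. 1700019B21Rik is left out because its control counts are 0 to 5; the diamond of Gm26722 at 4.38 rests on a remaining control library of day 3 at 0 counts and is no estimate of size.

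Malat1 and Neat1 are neighbouring nuclear lincRNAs on chromosome 19. Malat1 (chr19:5795690-5802672, minus strand) accumulates in nuclear speckles, where splicing factors are stored, and Neat1 (chr19:5824708-5845478, minus strand) is the scaffold around which paraspeckles form. Neat1 in control was at 166.5 and 181.7 CPM on day 0, 111.5 and 162.1 on day 3, 176 and 181.7 on day 5 and 425.4 on day 10. Its knockdown-labelled levels were 458.5 and 484.4 CPM on day 0, 196.6 and 207.9 on day 3, 280.8 and 280.1 on day 5 and 548.8 on day 10. The groups did not overlap at any replicated day, and the gap was widest on day 0. Neat1 rose by 0.88 on the log2 scale averaged over the days (standard error 0.11, adjusted p = 0.000352), and by 1.44 on day 0 (standard error 0.20, adjusted p = 0.00163). On day 3 the value was 0.57 (adjusted p = 0.0804) and on day 5 0.65 (adjusted p = 0.0727). With the replicate number as a block these became 0.58 (adjusted p = 0.0498) and 0.65 (adjusted p = 0.0414). Without control day 3 replicate 2 the day 3 value was 0.86 and the averaged value 0.98.

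Malat1 in control was at 2354 and 2192 CPM on day 0, 3770 and 11114 on day 3, 3653 and 3163 on day 5 and 4754 on day 10. Its knockdown-labelled levels were 4932 and 4328 CPM on day 0, 6150 and 4986 on day 3, 9433 and 8053 on day 5 and 9070 on day 10. The knockdown-labelled libraries were above control at days 0 and 5, while on day 3 the value of 11114 CPM, the highest of all 14, was in control replicate 2. With all libraries the averaged log2 fold change was 0.66 (standard error 0.23, adjusted p = 0.0621), short of the threshold. Without control day 3 replicate 2 it was 0.98 (adjusted p = 5.4e-06), and each day passed on its own, with 1.03 on day 0, 0.56 on day 3 and 1.35 on day 5.

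Of 13 measured protein genes of the paraspeckle list, Smarca4, a chromatin remodelling ATPase, was the 1 that changed, falling by 0.68 (adjusted p = 0.00713), and the list's median log2 fold change was −0.13. Without the odd library 5 were lower and none higher. The shares of all genes that were lower are 11.9% with all libraries and 22.2% without it. Sfpq, a core paraspeckle protein, was then at −0.46 (adjusted p = 0.00371), and at −0.34 (adjusted p = 0.15) with all libraries. 

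**Figure D4:**
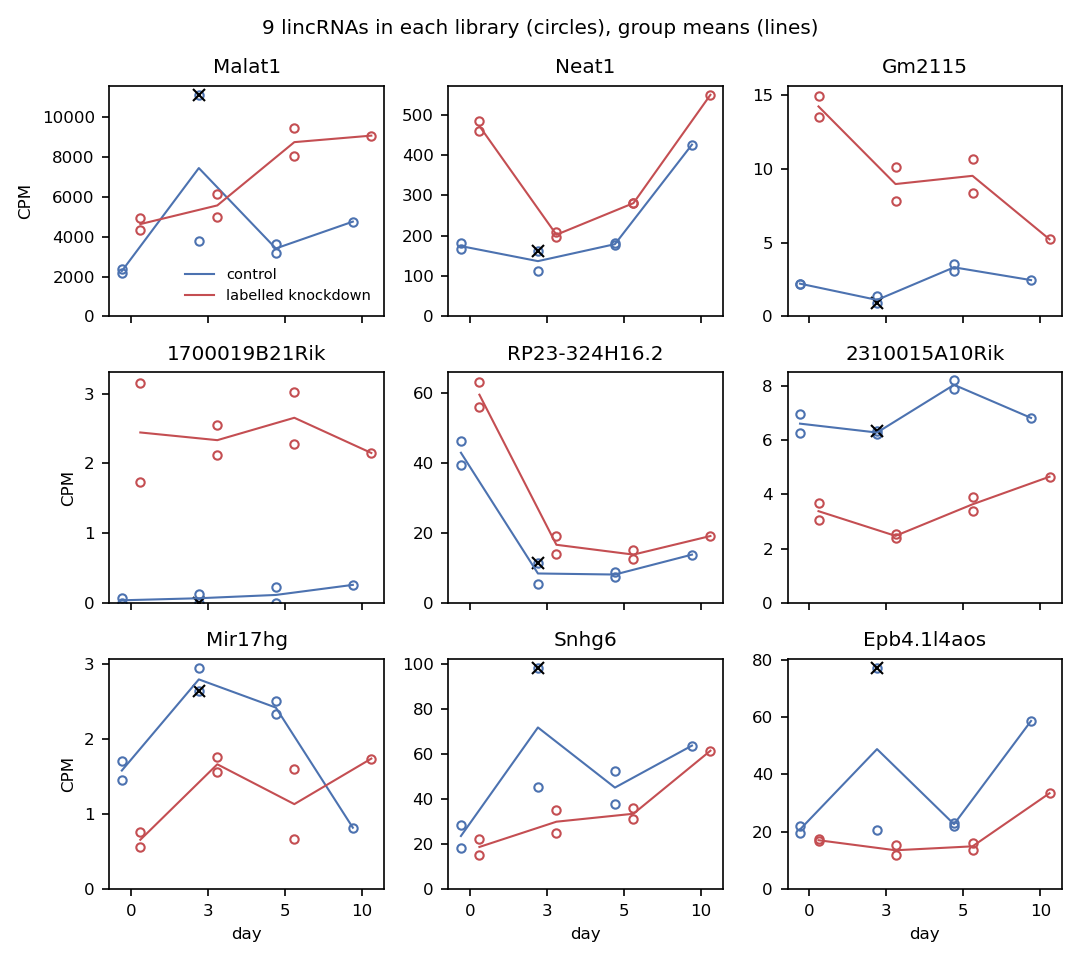
CPM of 9 lincRNAs in each library (circles; the cross marks control day 3 replicate 2) by day, with lines through the group means; days are drawn at equal spacing, and day 10 has 1 library per condition. Gm2115, Neat1, 1700019B21Rik, RP23-324H16.2, 2310015A10Rik, Mir17hg and Epb4.1l4aos show no overlap of the conditions at any replicated day. The control mean of Malat1, Snhg6 and Epb4.1l4aos on day 3 is set by 1 library.

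The rise with the smallest adjusted p was that of Gm2115 (chr7:84528954-84583531, plus strand), which M21 lists as protein-coding and the deposited table as lincRNA. Control libraries had 2.21 and 2.23 CPM on day 0, 1.35 and 0.882 on day 3, 3.07 and 3.58 on day 5 and 2.46 on day 10. Knockdown-labelled libraries had 14.9 and 13.6 CPM on day 0, 10.1 and 7.85 on day 3, 10.7 and 8.39 on day 5 and 5.23 on day 10. Every knockdown-labelled library was above every control library. The averaged log2 fold change was 2.38 (standard error 0.16, adjusted p = 4.93e-06), with 2.68 on day 0, 2.93 on day 3 and 1.53 on day 5, each past the threshold. Its promoter as RefSeq gives it (GRCm38.p6, chr7:84528724-84529023, plus strand, 250 bases before to 50 after a start that lies 20 bp from the GENCODE one) is shown because the values of this gene separate the conditions without overlap, and it holds neither motif searched below:
Gm2115: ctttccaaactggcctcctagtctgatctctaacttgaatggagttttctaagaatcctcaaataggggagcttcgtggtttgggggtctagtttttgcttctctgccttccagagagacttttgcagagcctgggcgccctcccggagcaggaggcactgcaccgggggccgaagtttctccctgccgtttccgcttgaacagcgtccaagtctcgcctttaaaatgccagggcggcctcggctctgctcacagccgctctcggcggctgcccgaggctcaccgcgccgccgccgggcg

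1700019B21Rik (chrX:62510539-62527011, minus strand; Tslrn1 in M21, a name given for expression in testis) was close to absent in control. It had 0 and 1 counts on day 0, 2 and 0 on day 3, 4 and 0 on day 5 and 5 on day 10. Its knockdown-labelled values were 58 and 25 counts on day 0, 42 and 36 on day 3, 72 and 34 on day 5 and 37 on day 10, or 1.74 to 3.15 CPM. It is the 1 member that reached 20 counts in knockdown-labelled libraries only, so its direction is no evidence of its own. The rise passed the test averaged over days (adjusted p = 0.000121) and on each day, and no fold is given because the control counts are too few for one.

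Another 6 lincRNAs were among the 8 largest averaged rises. Of these, Gm26722, A330074K22Rik, A830019P07Rik and 4930509E16Rik were chosen only through knockdown-labelled libraries, so their direction is no evidence of its own. Gm26722 (chr4:129309081-129318443, plus strand) had 1 and 5 counts in control on day 0, 0 and 6 on day 3, 15 and 2 on day 5 and 33 on day 10, against 44 and 17, 39 and 36, 37 and 32, and 75 in the knockdown-labelled libraries. It lies within the span of Rbbp4, a histone-binding protein gene on the opposite strand with a mean of 177.6 CPM, whose log2 fold change was 0.04. A330074K22Rik (chr8:120204434-120228230, minus strand) had 24 and 21 counts in control on day 0, 5 and 10 on day 3, 2 and 4 on day 5 and 12 on day 10, against 71 and 67, 32 and 38, 50 and 33, and 51. Its averaged log2 fold change was 2.12 (standard error 0.35, adjusted p = 0.00197). Both genes had all knockdown-labelled libraries above control at each replicated day.

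A830019P07Rik (chr19:35835217-35924578, minus strand) had 4 and 0 counts in control on day 0, 22 and 10 on day 3, 21 and 6 on day 5 and 35 on day 10, against 32 and 21, 54 and 21, 101 and 43, and 98. It rose by 2.06 (standard error 0.39, adjusted p = 0.00397). Gm12603 (chr4:89050308-89084614, plus strand), named Wincr1 in M21 as a Wnt-induced noncoding RNA, had 2.72 and 2.57 CPM in control on day 0, 1.09 and 0.882 on day 3, 1.4 and 0.467 on day 5 and 1.9 on day 10. Its knockdown-labelled values were 4.29 and 3.9 CPM on day 0, 3.89 and 3.39 on day 3, 3.83 and 3.22 on day 5 and 7.03 on day 10. It rose by 1.44 averaged (standard error 0.23, adjusted p = 0.00144), by 1.84 on day 3 and by 1.86 on day 5, whereas 0.63 on day 0 did not pass (adjusted p = 0.4). 4930509E16Rik (chr9:72518250-72531858, minus strand) rose by 1.33 (standard error 0.36, adjusted p = 0.0223), from 4 to 21 counts in the control libraries to 13 to 76 in those labelled knockdown.

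Gm26870 (chr9:3000282-3038313, minus strand) lies at the first assembled bases of chromosome 9, beside the repeats of the centromere, so its reads may be shared with other copies and its counts are uncertain. Control had 1.14 and 0.765 CPM on day 0, 2.44 and 16.2 on day 3, 2.35 and 1.79 on day 5 and 2.97 on day 10. Knockdown-labelled libraries had 6.52 and 6.61 CPM on day 0, 16.3 and 9.62 on day 3, 19.2 and 14.4 on day 5 and 30.1 on day 10. Control day 3 replicate 2 was the 1 control library at the level of the other condition. The averaged log2 fold change was 2.12 (standard error 0.40, adjusted p = 0.00396), and 2.73 without that library.

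The fall with the smallest adjusted p was that of 2310015A10Rik (chr12:80120546-80132844, minus strand), which lies 7533 bp from Zfp36l1, a gene for a protein that destabilises AU-rich messenger RNAs, on the same strand. Control libraries had 6.95 and 6.26 CPM on day 0, 6.24 and 6.32 on day 3, 8.21 and 7.87 on day 5 and 6.82 on day 10. Knockdown-labelled libraries had 3.69 and 3.06 CPM on day 0, 2.53 and 2.4 on day 3, 3.37 and 3.9 on day 5 and 4.65 on day 10. No library of either condition overlapped the other condition. It fell by 1.15 averaged (standard error 0.13, adjusted p = 0.000151), and passed on day 0 (−0.96), day 3 (−1.34) and day 5 (−1.15); without the odd library the averaged value stayed at −1.15. Zfp36l1 fell by 0.35 (adjusted p = 0.045). The promoter from RefSeq (GRCm38.p6, chr12:80132795-80133094, minus strand, start as in GENCODE) is shown for comparison, with the RUNX core TGTGGT at position 72 in capitals:
2310015A10Rik: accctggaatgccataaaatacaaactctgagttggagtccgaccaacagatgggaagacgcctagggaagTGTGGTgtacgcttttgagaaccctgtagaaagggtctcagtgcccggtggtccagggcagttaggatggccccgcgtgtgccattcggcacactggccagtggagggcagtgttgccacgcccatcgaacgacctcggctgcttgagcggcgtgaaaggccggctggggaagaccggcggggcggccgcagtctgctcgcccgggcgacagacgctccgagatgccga

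Motifs of a pair of transcription factor families were counted in the 91 member promoters that RefSeq gives, on both strands. The LEF/TCF core CTTTGA, bound by the factors that act with beta-catenin, was in 7 of 91 (7.69%), beside 16.2% of all 27025 promoters of that length. It was in 3 of 15 promoters of members that rose and in 1 of 10 of those that fell. The RUNX core TGTGGT, bound by the osteoblast factor Runx2, was in 10 of 91 (11%), beside 16.9% of all. It was in 2 of 15 of the former and 3 of 10 of the latter. These are matches of letters in a window, not sites.

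Of the other falls, RP23-371A16.3 (4932422M17Rik in M21), which lies 624 bp from the histone methyltransferase gene Setd1b, was at 1.67 to 5.14 CPM in control at days 0 to 5 and at 0.806 to 2.07 CPM in the knockdown-labelled libraries. It fell by 1.10 (standard error 0.27, adjusted p = 0.0145). C330006A16Rik, listed in M21 as Tmem250-ps, had 23.1 and 25.7 CPM in control on day 0, 28.7 and 86.4 on day 3 and 34.2 and 38.8 on day 5, against 15.2 and 18.7, 21.3 and 15.1, and 20 and 24. It fell by 0.97 (standard error 0.24, adjusted p = 0.0146), and by 0.64 (adjusted p = 0.00048) without the odd library, which moved the size by over 1.5 times but kept the call. Gm16576, which starts 162 bp from the nuclear envelope gene Sun2, fell by 0.97 (standard error 0.24, adjusted p = 0.0152), and RP23-34P11.2 fell by 0.94 (standard error 0.28, adjusted p = 0.0318). Both had the conditions apart at all 3 replicated days.

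Irx3os lies across Irx3, a homeobox gene, on the opposite strand. Control had 2.91 and 2.99 CPM on day 0, 1.54 and 3.67 on day 3, 2.35 and 1.56 on day 5 and 3.79 on day 10; the knockdown-labelled libraries had 0.977 and 1.46, 1.31 and 0.919, 1.64 and 1.61, and 2.03. It fell by 0.89 (standard error 0.26, adjusted p = 0.0298), and Irx3, at a mean of 79.14 CPM, fell by 1.42 (standard error 0.16, adjusted p = 0.000158). Whether the counts of the antisense RNA hold reads of Irx3 was not tested.

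Mir17hg and Mir143hg are the members on the list of miRNA hosts. miRNAs are the short RNAs that guide Argonaute proteins to messenger RNAs through their seed (bases 2 to 8). Mir17hg (chr14:115042879-115046727, plus strand) carries 6 hairpins of the miR-17-92 cluster, which is known for its part in cell proliferation and in skeletal growth. The mature guide strands are shown, from RefSeq (GRCm38.p6), because the fall of the host concerns this shared transcript; capitals mark the seed:
mmu-miR-17-5p: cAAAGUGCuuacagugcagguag
mmu-miR-20a-5p: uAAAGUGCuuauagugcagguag
mmu-miR-18a-5p: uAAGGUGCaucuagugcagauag
mmu-miR-19a-3p: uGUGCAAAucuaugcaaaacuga
mmu-miR-19b-3p: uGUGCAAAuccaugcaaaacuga
mmu-miR-92a-3p: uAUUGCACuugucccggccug

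miR-17 and miR-20a share the seed AAAGUGC, and miR-19a and miR-19b share GUGCAAA. Mir17hg was at 1.71 and 1.46 CPM in control on day 0, 2.96 and 2.65 on day 3, 2.51 and 2.34 on day 5 and 0.82 on day 10. Its knockdown-labelled levels were 0.76 and 0.556 CPM on day 0, 1.57 and 1.77 on day 3, 1.6 and 0.671 on day 5 and 1.74 on day 10. The conditions did not overlap at the replicated days, and on day 10 the order was the other way round. Mir17hg fell by 1.02 averaged (standard error 0.25, adjusted p = 0.0133), while no single day passed (adjusted p of 0.151, 0.231 and 0.173). Its counts were 8 to 46 per library, and mature miRNAs were not measured in these libraries of polyadenylated RNA.

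Mir143hg (Carmn in M21), the host of miR-143 and miR-145 and known as a smooth muscle lincRNA, had 1.96 and 1.6 CPM in control on day 0, 1.16 and 2.06 on day 3 and 1.84 and 1.25 on day 5. Knockdown-labelled libraries had 2.01 and 1.81, 3.59 and 3.39, and 2.57 and 4.97 CPM. The groups overlapped on day 0 and were apart at days 3 and 5, and it rose by 0.85 averaged (standard error 0.24, adjusted p = 0.0272). At day 10 the values were 1.79 and 1.86 CPM. The muscle markers given above differed in the same direction, and their part was not tested.

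A further host is outside the fixed list and was picked after its values were seen. 6720427I07Rik (chr13:48532905-48546500, minus strand) carries a let-7 cluster whose mature strands share the seed GAGGUAG, again in capitals:
mmu-let-7a-5p: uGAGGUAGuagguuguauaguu
mmu-let-7f-5p: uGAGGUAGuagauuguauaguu
mmu-let-7d-5p: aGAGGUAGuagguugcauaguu

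This host ranged from 3.96 to 7.05 CPM in control and from 2.85 to 6.18 CPM in the knockdown-labelled libraries, with an averaged log2 fold change of −0.24 (standard error 0.18, adjusted p = 0.353). Of 13 miRNA processing genes, 4 rose and none fell: Drosha, which cuts the hairpin out, by 0.31 (adjusted p = 0.0462), Dicer1, which cuts the loop off, by 0.45 (adjusted p = 0.00969), Ago2, which carries the miRNA, by 0.49 (adjusted p = 0.00357) and Tnrc6b, its partner in silencing, by 0.52 (adjusted p = 0.03). The list's median log2 fold change was 0.19, beside −0.00 over all genes; without the odd library 7 were higher and 1 lower, beside 24.9% and 22.2% of all genes. With all libraries those shares were 15% and 11.9%.

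Small nucleolar RNAs guide the chemical modification of ribosomal RNA and are mostly cut out of the introns of host transcripts. The list of such hosts held 6 members, Snhg6, Snhg12, Snhg18, Snhg20 (whose span holds, in M21, a scaRNA, a related guide RNA of the Cajal body, and the hairpin Mir6516), Epb4.1l4aos and Snora26 (Dancr in M21). Of these 6, none rose and 2 fell, beside 15% and 11.9% of all genes, and the median log2 fold change was −0.35. Snhg6 (chr1:9941959-9944118, minus strand) was at 28.6 and 18.4 CPM in control on day 0, 45.3 and 98 on day 3, 52.4 and 37.6 on day 5 and 63.6 on day 10. Its knockdown-labelled levels were 22.1 and 15.3, 34.9 and 24.8, 35.8 and 31, and 61.4 CPM. The conditions overlapped on day 0 and were apart at days 3 and 5. Snhg6 fell by 0.67 (standard error 0.22, adjusted p = 0.0449); with the replicate block the adjusted p was 0.0511, and without the odd library the value was −0.45 (adjusted p = 0.0408).

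Epb4.1l4aos was at 19.7 and 22 CPM in control on day 0, 20.6 and 77.1 on day 3, 22.2 and 23.1 on day 5 and 58.7 on day 10. Its knockdown-labelled levels were 17.5 and 16.6, 11.8 and 15.3, 13.6 and 16.2, and 33.5 CPM, below control on each day. It fell by 0.91 (standard error 0.27, adjusted p = 0.0302), and by 0.50 (adjusted p = 0.000825) without control day 3 replicate 2.

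The other 4 hosts did not pass averaged over the days. Snhg12 had a log2 fold change of −0.38 (standard error 0.17, adjusted p = 0.119), Snhg18 −0.25 (0.20, 0.376), Snhg20 −0.32 (0.24, 0.354) and Snora26 −0.05 (0.24, 0.896). All 4 had their highest control value of days 0 to 5 in control day 3 replicate 2: 52.9 CPM for Snhg12, 74.5 for Snhg18, 43.6 for Snhg20 and 10.9 for Snora26. Without that library the values were −0.18, −0.08, 0.00 and 0.22. M21 places a small nucleolar RNA in 2 more members outside the list, named after their values were seen: RP23-408A1.4, at −0.67 (standard error 0.22, adjusted p = 0.0501, and 0.033 with the replicate block), and 2700038G22Rik, which holds Snord93, at −0.87 (standard error 0.32, adjusted p = 0.072). Many such hosts begin, like ribosomal protein genes, with a pyrimidine tract; the share of ribosomal protein counts in each condition is given above, and its part in these values was not tested. Of 16 genes of the nuclear exosome and its adaptors, Exosc9 rose (0.63, adjusted p = 0.00287) and none fell. Without the odd library 2 were higher and 4 lower, with the shares of all genes as given for the miRNA processing list.

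Pvt1, the lincRNA next to Myc, varied little, at 24.5 to 39.8 CPM over all 14 libraries, with an averaged log2 fold change of 0.15 (standard error 0.10, adjusted p = 0.321). Ftx, from the X inactivation centre, whose span also holds the hairpins Mir421 and Mir374b, was at 7.3 to 9.04 CPM in 5 of the 6 control libraries of days 0 to 5 and at 2.2 CPM in control day 3 replicate 2, against 9.32 to 11.5 CPM in the knockdown-labelled libraries. Its log2 fold change was 0.42 (standard error 0.24, adjusted p = 0.234), and 0.22 without that library. 1700020I14Rik, the mouse Cyrano, which directs the decay of miR-7, was named after its values were seen. It was at 114.2 and 114.4 CPM in control on day 0 and at 181.7 and 183.1 on day 5, against 122.3 and 110.7, and 149.5 and 136, in the knockdown-labelled libraries. It did not pass with all libraries (−0.18, standard error 0.12, adjusted p = 0.283) and was at −0.27 (adjusted p = 0.00225) without the odd one.

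At single days, fewer members passed. At day 0, 5 were higher and 1 lower, beside 4.41% and 2.68% of all genes. The rises were 1700019B21Rik, A830019P07Rik, Gm2115, A430046D13Rik and Neat1, and the fall was 2310015A10Rik. Of the rises, 1700019B21Rik and A830019P07Rik were chosen only through knockdown-labelled libraries, so their direction is no evidence of its own. A430046D13Rik, which starts 679 bp from the myosin light chain gene Myl6b, had 1.77 and 0.974 CPM in control and 4.51 and 4.1 in the knockdown-labelled libraries, a rise of 1.64 (standard error 0.32, adjusted p = 0.0128). With the replicate block the falls on day 0 were 3, Gm8773 and RP24-487F9.4 being added. Without control day 3 replicate 2, whose spread enters every comparison, the counts on day 0 were 17 and 8, beside 15.8% and 12.9% of all genes.

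At day 3, 6 members were higher and 11 lower, beside 7.06% and 5.52% of all genes, and the members' median log2 fold change was −0.20, against 0.01 for all genes. Without control day 3 replicate 2 they were 14 and 9, beside 11.9% and 9.18%, and the median was 0.04. The rise of 4933404O12Rik (chr5:136919146-136937112, plus strand) did not rest on that library: it had 5.59 and 3.08 CPM in control and 11.6 and 13.1 in the knockdown-labelled libraries, a rise of 1.46 (standard error 0.31, adjusted p = 0.0171), and 1.14 (adjusted p = 0.0128) without it. Among the falls, Epb4.1l4aos went from −1.84 (standard error 0.47, adjusted p = 0.0348) to −0.61 (adjusted p = 0.0323) and C330006A16Rik from −1.64 (standard error 0.42, adjusted p = 0.0342) to −0.64 (adjusted p = 0.0475) when it was left out. Gm20045 had 6.81 and 15.6 CPM in control and 3.84 and 2.26 in the knockdown-labelled libraries; its fall of 1.83 (standard error 0.49, adjusted p = 0.0396) lost its call without that library (−1.13, adjusted p = 0.0872) and with the replicate block (adjusted p = 0.0559). 6230400D17Rik had 3.66 and 4.26 CPM against 1.11 and 1.41, and its fall of 1.64 (standard error 0.43, adjusted p = 0.0363) became 1.55 (adjusted p = 0.038).

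At day 5, 7 members were higher and 2 lower, beside 5.32% and 2.47% of all genes, and 22 and 10, beside 16.6% and 14.9%, without the odd library. A330074K22Rik rose by 3.39 (standard error 0.69, adjusted p = 0.0146) from control counts of 2 and 4, and Gm26870 by 3.01 (standard error 0.69, adjusted p = 0.0261). A330074K22Rik was chosen only through knockdown-labelled libraries, as was 1700019B21Rik, which also rose at this day, so their direction is no evidence of its own. RP23-148L8.3 (Gm20186 in M21) fell at this day by 1.68 (standard error 0.43, adjusted p = 0.0397), from 3.29 and 3.35 CPM in control to 0.757 and 1.34.

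From day 0 to day 5 in control cells, 4 lincRNAs rose and 6 fell, beside 4.32% and 3.82% of all genes. The largest fall among members with a mean of at least 1 CPM over the control libraries of both days was that of RP23-324H16.2 (chr5:59569702-59574242, minus strand), whose nearest protein-coding gene, the protocadherin gene Pcdh7, lies 1436472 bp away. It was at 46.3 and 39.4 CPM in control on day 0, 5.4 and 11.3 on day 3, 8.71 and 7.4 on day 5 and 13.7 on day 10. In the knockdown-labelled libraries it went from 62.9 and 55.9 CPM on day 0 to 19.1 and 14 on day 3, 15.1 and 12.4 on day 5 and 19.1 on day 10. It fell by 2.41 in control (standard error 0.32, adjusted p = 0.00143) and by 2.11 in the other condition (standard error 0.31, adjusted p = 0.00888). It was above control at each replicated day as well, with an averaged rise of 0.76 (standard error 0.18, adjusted p = 0.0115).

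RP23-148L8.3 rose in control by 2.18 (standard error 0.45, adjusted p = 0.0154), from 12 and 10 counts on day 0 and 11 and 2 on day 3 to 59 and 43 on day 5. BC002059 rose by 1.82 (standard error 0.37, adjusted p = 0.014), from 1.26 and 1.81 CPM to 6.53 and 4.28, with most of the difference already there on day 3 (7.39 and 4.11 CPM). D930016D06Rik rose by 1.39 (standard error 0.26, adjusted p = 0.0103), from 12.3 and 10.8 CPM to 29.9 and 30.6, and Gm16973 by 1.13 (standard error 0.24, adjusted p = 0.0168). BC002059, D930016D06Rik and Gm16973 had values of 1.15, 0.78 and 0.64 in the knockdown-labelled libraries, none of which passed (adjusted p of 0.153, 0.215 and 0.258). Gm10814 fell by 1.96 (standard error 0.51, adjusted p = 0.0434), from 27 and 29 counts to 12 and 3, and 9530082P21Rik by 1.34 (standard error 0.33, adjusted p = 0.0362), from 5.06 and 7.86 CPM to 2.18 and 2.96. RP24-448C16.7 fell by 1.22 (standard error 0.31, adjusted p = 0.0394). Cep83os was another fall. A330074K22Rik fell by 2.86 (standard error 0.71, adjusted p = 0.0375), from a mean of 1.49 CPM on day 0 to 0.212 CPM on day 5, or 24 and 21 counts to 2 and 4.

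In the knockdown-labelled libraries 1 member rose from day 0 to day 5 and 1 fell, beside 1.45% and 0.548% of all genes. The rise was that of 2310008N11Rik (chr8:26814593-26884380, minus strand), with 2 and 2 counts on day 0, 27 and 32 on day 3, 47 and 37 on day 5 and 7 on day 10 (adjusted p = 0.0207). This gene reached 20 counts in 3 control and 4 knockdown-labelled libraries, the latter being those of days 3 and 5. The direction of its rise was thus in part fixed by the choice and is no evidence of its own. In control it had 8 and 13 counts on day 0, 40 and 52 on day 3, 25 and 16 on day 5 and 0 on day 10. In both conditions it was thus highest on day 3 or 5 and lower on day 10. Without control day 3 replicate 2 the control course had 19 rises and 13 falls, beside 17% and 14.5% of all genes, and the other 10 and 3, beside 8.01% and 7.56%. Malat1 then rose with the day in both, by 0.60 in control (adjusted p = 0.00754) and by 0.92 in the knockdown-labelled libraries (adjusted p = 0.00117).

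No member's change from day 0 to day 5 differed between the conditions with all libraries in edgeR, beside 0.8% of all genes higher and 0.564% lower. At an unadjusted p under 0.05 there were 13 higher and 2 lower, beside 5.06% and 3.62% of all genes. DESeq2 called 1 higher and none lower, and limma on log2(RPKM + 1) none. When control day 3 replicate 2 was left out, there were 5 higher and 2 lower, beside 5.07% and 5% of all genes. The higher ones were 2310008N11Rik, Cep83os, Gm37800, RP24-448C16.7 and RP24-487F9.4. The lower ones were Gm2115 (−1.16, adjusted p = 0.039) and Neat1 (−0.80, adjusted p = 0.00157), whose excess over control was smaller on day 5 than on day 0.

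Day 10 had 1 library per condition and allows no test. All 24 members that rose over days 0 to 5 were higher on day 10 in the knockdown-labelled library, and 13 of the 16 that fell were lower. Of all genes tested, the shares on the same side were 93.8% and 91.7%. Counts of day 10 took part in the choice of members, and 9 of the 24 were chosen only through knockdown-labelled libraries, so the direction of these at day 10 was in part fixed by the choice. The 3 exceptions were RP24-487F9.4, RP23-371A16.3 and Mir17hg, with differences of 0.76, 0.74 and 0.76 on the log2(CPM + 0.5) scale. The largest difference was that of Gm26870 (3.14, from 2.97 to 30.1 CPM), followed by 4930509E16Rik (2.29, from 5 to 55 counts). Over 2-fold differences were seen in 10 members upward and 3 downward. The share over all genes was not counted, so these numbers cannot show whether the lincRNAs shifted as a set. The choice of members favours the upward side, with 25 chosen only through knockdown-labelled libraries and 3 only through control. Neat1 was higher on day 10 than on day 5 in both conditions, by 1.25 in control and 0.97 in the other.

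Neighbouring genes were compared because many lincRNAs share a promoter region with a protein-coding gene. For 110 members the nearest protein-coding gene was also tested. Across these pairs the averaged log2 fold changes correlated with a Pearson coefficient of 0.23 and a Spearman coefficient of 0.40, and for the control course from day 0 to day 5 the Pearson coefficient was 0.34. The Spearman coefficient was 0.40 both in the 46 pairs that start within 1000 bp of each other on opposite strands and in the other 64. These are descriptions across genes, which share the 14 libraries and are not independent. Of 28 called members in such pairs, 9 (32.1%) had a called neighbour, 8 of them in the same direction. Of all 110 neighbours 30.9% were called, a share near that one.

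Among these, 5031425E22Rik fell by 0.57 beside Kmt2e, a chromatin regulator gene that starts 172 bp away and fell by 0.56, and 1600020E01Rik fell by 0.73 over Pcbp1, an RNA-binding protein gene that fell by 0.55. A430046D13Rik rose by 0.85 averaged over the days and Myl6b by 1.20. Ptgs2os2 and Ptgs2, the inducible prostaglandin synthase gene, both rose by 0.64. The exception was Gm16576, which fell by 0.97 while Sun2 rose by 0.54 (adjusted p = 0.00243). The widest gap of the 110 pairs was between Snhg18 and Sema5a, a semaphorin gene that starts 148 bp away on the other strand: Sema5a rose by 3.68 (standard error 0.14, adjusted p = 2.01e-07) and Snhg18 was at −0.25 (adjusted p = 0.376). These pairs were picked after their values were seen.

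**Figure D5:**
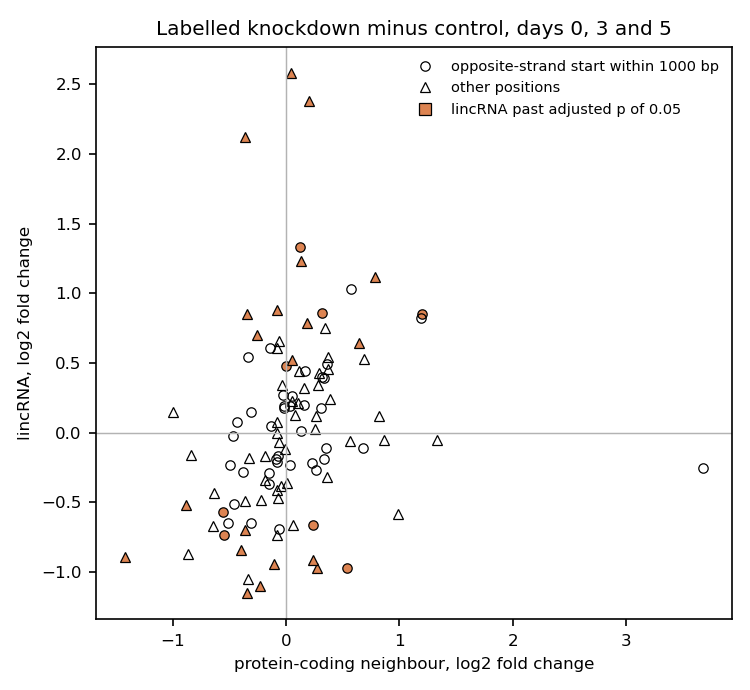
Averaged log2 fold change of 110 lincRNAs (vertical) against that of their nearest protein-coding gene (horizontal); circles are pairs whose starts lie within 1000 bp on opposite strands, triangles all others, and filled symbols are lincRNAs past the threshold. The point far right is Sema5a (3.68) with Snhg18 (−0.25).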

How the data were processed

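RNA-seq libraries of MC3T3-E1 cells were made, per the labels' protocols, from DNase-treated, oligo(dT)-selected RNA as directional libraries. The submitters' processing notes name bcl2fastq, TopHat2, edgeR and GRCm38, with no version or role. How reads were counted, on which strand and with which annotation release is not stated in any source at hand. Deposited by the authors were whole-number counts for 24346 genes and RPKM values for 24340 of these. The RPKM were used for levels per length and in 1 alternative test.

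A gene entered the test with 10 or more counts in 2 or more libraries (13130 of 24346). Counts were fitted with edgeR 4.0.16 in R 4.3.3 (TMM scaling, robust quasi-likelihood F test, 8 means of condition by day, all 14 libraries, 6 residual degrees of freedom), with Benjamini-Hochberg adjustment over all genes tested. CPM are counts divided by the TMM-scaled total and multiplied by 1e6. Day 10, with 1 library per condition, entered no contrast. The fit was tested on simulated data. Depth was 8044687 to 23301514 counts, so a member at 20 counts is known poorly. The p-values measure the spread between replicate libraries. The sample titles give a replicate number and no pairing. Deviations of same-numbered libraries of the 2 conditions correlated at 0.329, 0.158 and 0.326 on days 0, 3 and 5. With 2 libraries per group, any difference shared between replicates 1 and 2, such as depth, enters this correlation. The main fit does not use the replicate number, and the block is an alternative fit.

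Named members are those fixed by name or class, the 5 with the highest median RPKM, and the 8 (averaged comparison) or 4 (others) largest called rises and falls with a mean of at least 1 CPM. The members, lists and rules were chosen with earlier results of these data known. Positions, exons and neighbours come from GENCODE M21 and promoters and miRNAs from RefSeq (GRCm38.p6); 165 genes, 4 of them members, had no M21 position. Alternatives were DESeq2 1.42.0 (size factors, Wald test), no filter on low counts, limma 3.58.1 on log2(RPKM + 1), the replicate block, days 0 and 5 only, and leaving out each replicated library.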

Additional observations from a re-analysis of the deposited data

Results flagged for a closer look

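Sides switched in 4 of the lincRNAs named by the rule above. Both libraries labelled knockdown lay on 1 side of both control libraries at a given day. At the next replicated day they lay on the other side. Members outside that rule switched as well, such as RP24-487F9.4, Cep83os, Gm17501 and Ino80dos. How often other genes switched was not counted, so the number of switches cannot be read as a trait of the lincRNAs. RP23-148L8.3 was at −0.47 on the log2 scale at day 0, 1.03 at day 3 and −1.68 at day 5. Gm16973 was at 0.30 at day 0 and −0.62 at day 3. Gm10814 was at −0.36 at day 0 and 1.08 at day 3. 2310008N11Rik was at −1.46 at day 3 and 0.74 at day 5. The difference between the days was not tested in any of them, and each involves day 3. Without control day 3 replicate 2 the day 3 values were 0.68, −0.51, 1.53 and −0.53, in the order given. Of these values the fall of RP23-148L8.3 at day 5 was the 1 that passed the test with all libraries.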

How the results depend on the processing

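Leaving out 1 library at a time moved the counts of members past the threshold as follows. Averaged over days they ranged from 14 to 34 higher and 7 to 35 lower, on day 0 from 3 to 18 and 0 to 8, on day 3 from 1 to 16 and 0 to 52, and on day 5 from 0 to 22 and 0 to 10. From day 0 to day 5 they ranged from 0 to 19 higher and 1 to 13 lower in control, from 0 to 10 and 0 to 3 in the knockdown-labelled libraries, and from 0 to 5 and 0 to 2 for the difference of the courses. Each highest count came from leaving out a control library of day 3, which removes the spread within that pair; 35 averaged falls and 52 falls on day 3 came without control day 3 replicate 1, which leaves replicate 2 alone. The lone library of a group is then assumed to vary like the other groups. Apart from the fits without control day 3 replicate 2, the shares of all genes are not given for these fits. The ranges therefore do not tell the lincRNAs from other genes. The averaged rises dropped by over 1.5 times without control day 5 replicate 2 (14), knockdown-labelled day 0 replicate 1 (14) or day 3 replicate 1 (15), and the falls without any single library other than the 2 control libraries of day 3 (7 to 10).

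Other settings moved counts by over 1.5 times. The average over days 0 and 5 alone, with all libraries in the fit, gave 13 rises and 3 falls, beside 9.25% and 5.69% of all genes. With no filter on low counts there were 10 rises and 2 falls on day 0, 12 and 25 on day 3, 12 rises on day 5, 8 and 10 in the control course, 5 and 2 in the other, and 4 rises for the difference. DESeq2 gave 2 falls on day 0, 10 rises and 20 falls on day 3, 11 rises on day 5, 3 falls in the knockdown-labelled course and 1 rise for the difference. limma on log2(RPKM + 1) gave 2 falls on day 0, 13 rises on day 3, 12 rises on day 5 and 3 falls in the knockdown-labelled course. The cause was not tested. The shares of all genes without the filter, in DESeq2 and in limma are not given here. These counts therefore cannot be read as a trait of the lincRNAs. DESeq2 size factors moved no count by that much. The replicate block gave 3 falls on day 0. Averaged over days it removed the calls of Snhg6 (adjusted p = 0.0511), RP24-448C16.7 (0.0539) and Gm12056, and on day 3 that of Gm20045 (0.0559). It added RP23-408A1.4 (averaged, 0.033), 2310008N11Rik (averaged, 0.0359), Gm8773 (day 0, 0.0298), RP24-487F9.4 (day 0, 0.0281, and control course, 0.0386), A830019P07Rik (day 5, 0.0297), Neat1 (days 3 and 5), Gm12603 (control course, 0.0385) and 1700020I14Rik (control course, 0.0446), and changed no other call of a member named in the report in these 7 comparisons.

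Values that changed sign had not passed the test. Averaged over days 0 and 5 alone, Snhg20 was at 0.01, Snora26 at 0.23, Yam1 at 0.16, RP24-567O8.4 at 0.01 and RP24-230J14.4 at 0.04. Snora26 was at 0.03 in limma. Leaving out 1 library at a time gave −0.25 to 0.22 for Snora26, highest without control day 3 replicate 2, and −0.66 to 0.15 for Yam1. Depth limits the lower members: 105 of 154 had a mean under 5 CPM.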
